A study of Mus musculus with 13 samples.

Results

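The genes described are 9 nuclear receptor coregulators, namely the coactivators Ncoa1, Ncoa2 and Ncoa3, the Mediator subunit Med1, the acetyltransferases Ep300 and Crebbp, the corepressors Ncor1 and Nrip1, and the deacetylase Hdac3. They were taken by gene symbol, with no measured value in the rule, though earlier results of these data were known. All 9 were among the 55536 genes of the count table. The study measured RNA in Pcm1-sorted nuclei from ventricles of C57BL/6J mice, an inbred strain, in a design of vector by sex. Pups of both sexes received adeno-associated virus of serotype 6 into the peritoneum on postnatal day 1, and ventricles were taken on postnatal day 56. The groups were females given the vector with human progesterone receptor (PGR_F, 3 libraries, numbered 1, 2 and 4), males given it (PGR_M, 3), females given the vector without insert (Con_F, 4) and males given it (Con_M, 3). Every group thus carried a virus, no uninjected mice are part of the comparison, and each library pooled 3 to 6 ventricles. The promoter driving the insert and the hormone state of the mice are not given in the sources used here.

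Nuclear receptors bind DNA and recruit coregulators, which carry no DNA-binding specificity of their own for hormone response elements. In the textbook scheme for some nuclear receptors, a receptor with an agonist exchanges a corepressor complex for a p160 coactivator (Ncoa1, Ncoa2 or Ncoa3). One such complex is built on Ncor1, and in it Hdac3 removes acetyl groups from histones. The coactivator brings in the acetyltransferases Ep300 and Crebbp, while Med1 links the receptor to Mediator and RNA polymerase II. Whether the added receptor follows this scheme was not examined. Nrip1, also called RIP140, binds agonist-bound receptors and represses, and in the heart and other oxidative tissues it is known as a brake on mitochondrial and fatty acid genes. The progesterone receptor is known to use the p160 coactivators. The comparison of vectors asks whether their RNA differs between hearts given the vector with the insert and hearts given the vector without it.

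In build GRCm38, Ncoa1 lies on the minus strand of chr12:4247362-4477182, Ncoa2 on the minus strand of chr1:13139105-13374083 and Ncoa3 on the plus strand of chr2:165992636-166073242. Med1 lies at chr11:98152154-98193293 and Ncor1 at chr11:62316426-62458541, both on the minus strand. Crebbp at chr16:4081328-4213997 and Nrip1 at chr16:76287400-76373827 share chromosome 16 and the minus strand, and Ep300 is on the plus strand at chr15:81585351-81652077. All 9 are protein coding genes.

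RefSeq promoter windows of build GRCm38.p6, which hold 250 bases before and 50 bases after an annotated start, were given for 6 of the 9 genes, in 8 windows. None was given for Ncoa2, Ncoa3 or Hdac3. Those of Ncoa1, the one p160 coactivator with a window, of Nrip1, the gene with the highest fold change under the PGR vector, and of the paralogues Crebbp and Ep300 are shown 5′ to 3′ for their contrast in base composition. Capitals mark AGAACA or its reverse complement TGTTCT, the hexamer bound by progesterone and glucocorticoid receptors, and GGGCGG or its reverse complement CCGCCC, the GC box, on either strand, where 2 overlapping boxes run together.
Ncoa1 (chr12:4477133-4477432, minus strand): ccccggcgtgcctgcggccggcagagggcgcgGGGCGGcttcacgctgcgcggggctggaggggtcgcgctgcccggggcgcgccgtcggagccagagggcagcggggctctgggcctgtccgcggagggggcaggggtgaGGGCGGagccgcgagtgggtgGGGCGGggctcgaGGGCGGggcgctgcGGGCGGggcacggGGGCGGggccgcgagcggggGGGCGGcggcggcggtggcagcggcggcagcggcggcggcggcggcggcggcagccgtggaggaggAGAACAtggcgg
Nrip1 (chr16:76373778-76374077, minus strand): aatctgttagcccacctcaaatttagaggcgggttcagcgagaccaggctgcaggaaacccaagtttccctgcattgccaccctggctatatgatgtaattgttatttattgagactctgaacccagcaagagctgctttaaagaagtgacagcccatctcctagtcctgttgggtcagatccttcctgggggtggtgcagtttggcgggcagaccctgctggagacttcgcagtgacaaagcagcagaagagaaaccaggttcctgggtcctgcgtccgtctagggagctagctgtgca
Crebbp (chr16:4213355-4213654, minus strand): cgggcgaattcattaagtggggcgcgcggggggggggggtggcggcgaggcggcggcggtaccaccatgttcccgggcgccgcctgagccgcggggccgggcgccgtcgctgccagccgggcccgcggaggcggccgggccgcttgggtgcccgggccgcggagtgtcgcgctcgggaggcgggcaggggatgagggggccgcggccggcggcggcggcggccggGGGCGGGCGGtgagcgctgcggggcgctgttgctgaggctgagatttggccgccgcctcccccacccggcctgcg
Ep300 (chr15:81585964-81586263, plus strand): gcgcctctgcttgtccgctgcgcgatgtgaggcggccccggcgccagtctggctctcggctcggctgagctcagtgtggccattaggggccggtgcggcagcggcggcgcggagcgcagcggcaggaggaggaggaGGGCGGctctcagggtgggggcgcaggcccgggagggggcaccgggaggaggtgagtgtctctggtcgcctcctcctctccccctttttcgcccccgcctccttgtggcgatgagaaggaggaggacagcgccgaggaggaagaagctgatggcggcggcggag

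The Ncoa1 window is 84.7% G and C, with 7 GC boxes and AGAACA at base 289, counted from 1 at its 5′ end. The Crebbp window is 82.0% G and C with 2 GC boxes and the Ep300 window 72.3% with 1. The Nrip1 window, at the outer end of the gene, is 52.7% G and C with neither motif, and a second annotated Nrip1 start lying 778 bases further in has 73.3% and 2 GC boxes. The median of all windows was 52.7%. Among 32817 promoter windows of the same length, 19.0% held AGAACA or its reverse complement and 35.6% a GC box, against 2 and 6 of the 8 windows of these genes. Besides Ncoa1, the hexamer was in a window of Ncor1 that is not shown. It belongs to an annotated start 20026 bases inside the gene, is 38.3% G and C, and holds TGTTCT at bases 66 and 239. AGGTCA or its reverse complement TGACCT, the hexamer of many other receptors, was in 0 of the 8 and in 16.3% of all windows. These matches describe letters in a window and not bound sites.

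Depth was 31.8 to 55.5 M counts per library in PGR_F, 45.3 to 57.9 M in PGR_M, 37.6 to 58.9 M in Con_F and 33.3 to 86.3 M in Con_M. The endogenous Pgr gene had 28 counts over all libraries and lay under the count filter, and the human insert was not analysed here, so its level beside the coregulators is not known. Cardiomyocyte markers summed to 75570 to 94400 TMM-scaled CPM over the 13 libraries, and none of the 8 was at 0. The sums were 26.7 to 61.9 CPM for endothelial markers, 25.4 to 100.6 for fibroblast markers, 31.0 to 55.0 for smooth muscle and pericyte markers and at most 18.3 for macrophage markers. Fibroblast markers summed to 64.4 to 100.6 CPM in Con_F, against 25.4 to 55.2 in Con_M, and endothelial markers to 50.8 to 61.9 CPM in Con_F, against 26.7 to 47.9 in Con_M, and their part in the sex comparison was not tested. In bulk nuclei, fewer nuclei of a type and less RNA per nucleus cannot be told apart. Con_F 4 held Y-linked counts at 1.03% of the male mean, against 0.0115% to 0.115% in the other 6 female libraries. For the 9 genes and the count over all genes, the comparisons it enters were also computed without it.

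All 9 genes were well counted, from 776 counts of Hdac3 in PGR_F 1 to 28989 of Ncoa2 in Con_M 1. The authors' counts cover the whole gene interval (end minus start plus 1), introns included, and exons make up 3.73% of it in Ncoa1 and 6.66% in Ncoa2, against 21.1% to 21.4% in Hdac3, Med1 and Ep300. Levels between genes were therefore compared as CPM per kb of interval, averaged over the 13 libraries. The genes fell into 2 tiers. The upper tier held the corepressor Nrip1 (2.24 ± 0.210 CPM per kb, SD, n = 13), the acetyltransferase Crebbp (2.17 ± 0.125), the corepressor Ncor1 (1.99 ± 0.123) and Med1 (1.96 ± 0.151). The lower tier held Ncoa2 (1.41 ± 0.0651), Hdac3 (1.27 ± 0.0713), Ep300 (1.16 ± 0.0917), Ncoa1 (1.07 ± 0.0789) and Ncoa3 (1.00 ± 0.0375).

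Med1 was above Ncoa2 per kb in 13 of 13 libraries, with its lowest library at 1.77 and the highest of Ncoa2 at 1.54 CPM per kb. Every other pair of neighbours in the order overlapped in range. Nrip1 was above Crebbp in 7 of 13 libraries and Ncor1 above Med1 in 8 of 13, so these do not differ beyond their spread. Per kb of interval, the paralogue Crebbp was 1.88 ± 0.108 times Ep300 within a library (SD, n = 13, lowest 1.71, highest 2.12). Among the p160 coactivators Ncoa2 was 1.32 ± 0.0872 times Ncoa1 and 1.41 ± 0.0782 times Ncoa3, while Ncoa1 over Ncoa3 ran from 0.933 to 1.25. The tiers depend on the length used: per kb of annotated exon the order began with Ncoa1 (28.7 CPM per kb of exon), Ncor1 (22.1), Crebbp (21.2) and Ncoa2 (21.1) and ended with Hdac3 (6.00) and Ep300 (5.42). Crebbp stood above Ep300 on both scales.

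**Figure D1:**
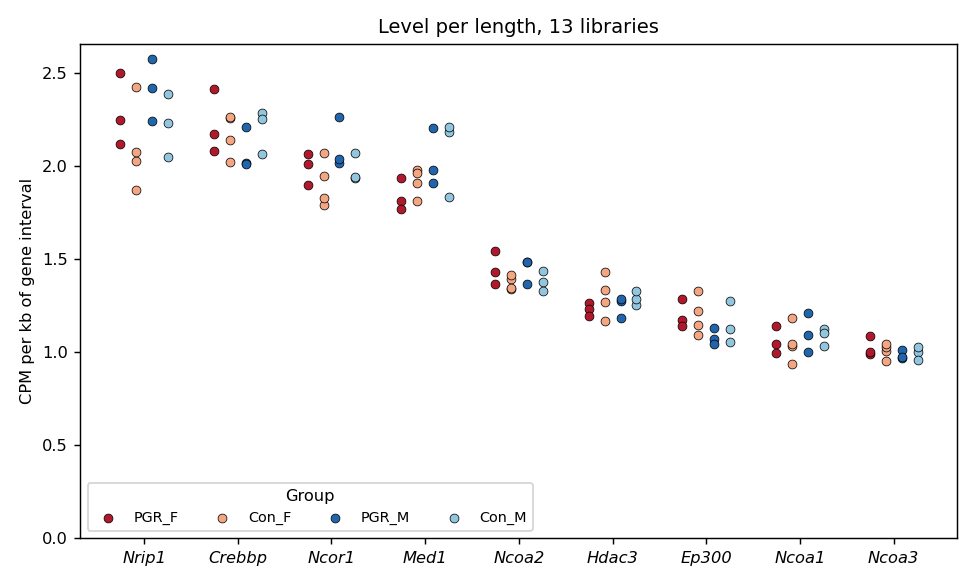
Level of each gene per kb of gene interval (vertical axis, CPM per kb), with 1 point per library coloured by group and genes in the order of their mean. Nrip1, Crebbp, Ncor1 and Med1 sit at about 2 CPM per kb in all 4 groups, and the other 5 genes have means over the 13 libraries of 1.00 to 1.41.

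The first comparison asked whether the PGR vector changed the coregulators' RNA. None of the 9 genes passed in females, in males or averaged over the sexes, and the largest fitted difference was 0.13 on the log2 scale, for Nrip1 in females. Averaged over the sexes, log2 fold changes of the PGR vector over the control vector ran from -0.07 for Hdac3 to 0.12 for Nrip1, and the 95% intervals of all 9 lay between -0.19 and 0.27, that is between 0.878-fold and 1.21-fold. Over all 16125 genes tested, 0.0062% passed (1 gene, Pmepa1) in the averaged comparison and 0% in each sex, so at this threshold 0 of 9 is no different from the background. Without Con_F 4 the averaged comparison called 338 genes, and again 0 of the 9. These 338 are still a small share of the genes tested, so 0 of 9 again does not set the members apart. With all libraries, the background at an unadjusted p under 0.05 was 14.8% of genes averaged, 10.9% in females and 7.48% in males. The count among the 9 was then 0 in each. Unadjusted counts are not given without Con_F 4, where Nrip1 moved farther from 0, to 0.16 (SE 0.06) averaged and 0.20 (SE 0.09) in females. The unadjusted 0 of 9 is thus known only with all libraries and may not hold without Con_F 4.

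Of the p160 coactivators, Ncoa2 had 362, 335 and 321 CPM in PGR_F, against 326, 315, 315 and 332 CPM in Con_F. In males it had 321, 349 and 349 CPM in PGR_M, against 338, 323 and 312 CPM in Con_M. The groups overlapped in both sexes, since the lowest PGR-vector library of each sex lay among the controls. Its averaged log2 fold change was 0.07 (SE 0.05, edgeR quasi-likelihood adjusted p = 0.567). Ncoa1, the first p160 member to be described, had 261, 239 and 228 CPM in PGR_F, against 215, 237, 240 and 271 CPM in Con_F, and 229, 251 and 278 CPM in PGR_M, against 236, 258 and 253 CPM in Con_M. Its lowest library, 215 CPM, and its second-highest, 271 CPM, were both in Con_F, so the spread inside 1 control group covered all but 1 of the 13 libraries. Its averaged log2 fold change was 0.02 (SE 0.07), and 0.05 (SE 0.06) without Con_F 4. Ncoa3 was the steadiest, with all 13 libraries between 76.6 and 87.5 CPM and an averaged log2 fold change of 0.0068 (SE 0.05, 95% interval -0.10 to 0.11), or -0.0059 without Con_F 4.

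Med1 had 74.5, 79.5 and 72.8 CPM in PGR_F, against 74.4, 81.3, 78.4 and 80.6 CPM in Con_F, and 78.4, 81.3 and 90.6 CPM in PGR_M, against 75.3, 89.8 and 90.8 CPM in Con_M. All vector groups overlapped, with an averaged log2 fold change of -0.04 (SE 0.06). The acetyltransferase Ep300 had 85.6, 78.3 and 76.2 CPM in PGR_F, against 81.5, 88.4, 76.2 and 72.6 CPM in Con_F. In males it had 71.2, 75.4 and 69.5 CPM in PGR_M, against 84.9, 75.1 and 70.2 CPM in Con_M. The male difference rests largely on Con_M 1, the only male library above 80 CPM. Crebbp averaged 295 ± 22.7 CPM in PGR_F, against 288 ± 15.1 in Con_F (SD, n = 3 and 4), and 276 ± 15.0 in PGR_M, against 292 ± 15.8 in Con_M (n = 3 each). For both acetyltransferases the fitted value was above 0 in females (0.0054 for Ep300, 0.04 for Crebbp) and below 0 in males (-0.09 and -0.08), each within 1 SE of 0. Without Con_F 4 the female values were -0.04 for Ep300 and 0.0025 for Crebbp, so the sign of Ep300 is not determined.

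Among the repressive genes, Nrip1 had 194, 183 and 216 CPM in PGR_F, against 161, 175, 179 and 209 CPM in Con_F. In males it had 209, 194 and 222 CPM in PGR_M, against 193, 177 and 206 CPM in Con_M. The PGR-vector libraries lay towards the upper side in both sexes, but Con_F 4, at 209 CPM, stood above 2 of the 3 PGR_F libraries. The log2 fold change was 0.13 (SE 0.10) in females, 0.12 (SE 0.10) in males and 0.12 averaged (SE 0.07, 95% interval -0.03 to 0.27, unadjusted p = 0.105, edgeR adjusted p = 0.442). Without Con_F 4 it was 0.20 (SE 0.09, adjusted p = 0.313) in females and 0.16 (SE 0.06, adjusted p = 0.193) averaged, still short of the threshold.

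Ncor1 had 293, 286 and 269 CPM in PGR_F, against 254, 276, 259 and 294 CPM in Con_F, and 286.5, 289 and 322 CPM in PGR_M, against 294, 275 and 276 CPM in Con_M. The highest of the 13 libraries was PGR_M 3, which was also the highest for Nrip1 and Ncoa1, and the groups overlapped in both sexes. Its averaged log2 fold change was 0.07 (SE 0.06, adjusted p = 0.577), or 0.10 (SE 0.06, edgeR adjusted p = 0.379) without Con_F 4. Hdac3 (chr18:37935844-37955016, minus strand), the enzyme of the Ncor1 complex, averaged 23.5 ± 0.693 CPM in PGR_F, against 24.9 ± 2.13 in Con_F (SD, n = 3 and 4), and 23.9 ± 1.12 in PGR_M, against 24.7 ± 0.744 in Con_M (n = 3 each). Its value was the lowest of the 9 averaged ones, at -0.07 (SE 0.06, adjusted p = 0.635). Without Con_F 4 Hdac3 was at -0.09 (SE 0.05, edgeR adjusted p = 0.381) averaged and -0.13 (SE 0.07, edgeR adjusted p = 0.425) in females. Beside it, Ncor1 over Hdac3 per kb was 1.62 ± 0.0249 in PGR_F, against 1.48 ± 0.225 in Con_F, and 1.69 ± 0.0956 in PGR_M, against 1.54 ± 0.101 in Con_M, with overlapping ranges in both sexes.

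**Figure D2:**
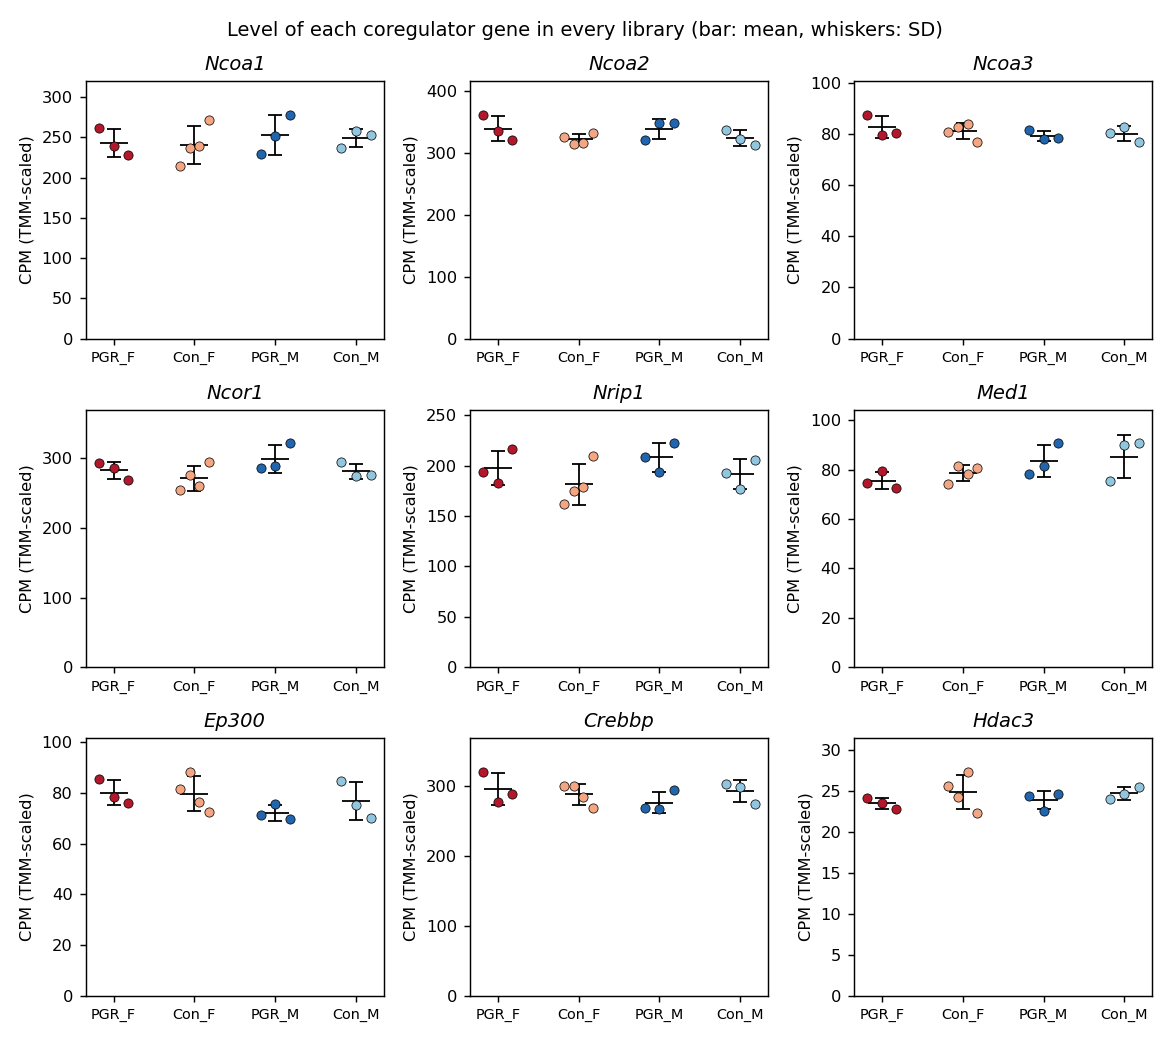
CPM of each gene in every library (vertical axes from 0), by group, with PGR_F and PGR_M each left of its control. Points are libraries, bars the mean and whiskers the SD, and for all 9 genes the PGR-vector and control libraries of each sex overlap.

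For the 9 genes the median log2 fold change was 0.03 in females, -0.01 in males and 0.0068 averaged, against 0.0033, 0.00067 and 0.0038 over all genes tested. The median size of the averaged change, sign aside, was 0.04, against 0.11 over all genes. Nrip1 was the 1 member of 9 with a size above 0.1, as were 8550 of the 16125 genes. By mean CPM the members ranked from percentile 69.5 (Hdac3) to 97.4 (Ncoa2) of the genes tested. The background was not matched for level, so the smaller size is not read as a trait of the coregulators. Members were above 0 in 7 of 9 cases in females, 4 of 9 in males and 5 of 9 averaged.

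**Figure D3:**
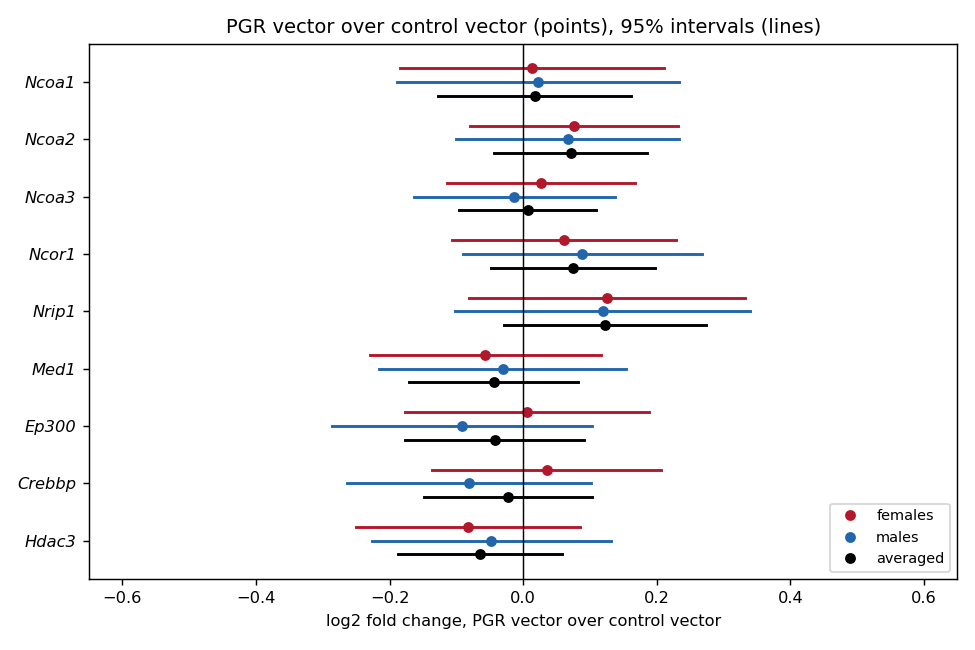
Log2 fold change of the PGR vector over the control vector for each gene (points) with 95% intervals (lines), in females, males and averaged. All 27 intervals span 0, and the averaged ones end at -0.19 on the low side and 0.27 on the high side.

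An interaction term asked whether the effect of the vector depended on sex. No coregulator passed, nor did any gene of the table (0%, with 3.26% at an unadjusted p under 0.05 against 0 of the 9). Female minus male log2 fold changes ran from -0.03 for Hdac3 to 0.12 for Crebbp (SE 0.12, 95% interval -0.13 to 0.37), with Ep300 next at 0.10 (SE 0.13). For Nrip1 the difference was 0.0068 (SE 0.14). Without Con_F 4 the lowest was Hdac3 at -0.08 (SE 0.11), Crebbp and Nrip1 were at 0.08 (SE 0.12 and 0.13) and Ep300 at 0.05 (SE 0.12), and again none passed. These intervals are wider than those of the averaged effect, ending at -0.30 and 0.37, or 0.814-fold and 1.29-fold.

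The comparison of females with males asked whether the coregulators differ by sex under each vector. Again none of the 9 passed, under either vector. Over all genes, 0.143% (23 genes) passed under the PGR vector and 0.229% (37 genes) under the control vector, and 7.25% and 12.4% had an unadjusted p under 0.05, beside 0 of the 9 each time. Female over male log2 fold changes ran from -0.14 for Med1 to 0.15 for Ep300 under the PGR vector, and from -0.12 for Med1 to 0.05 for Ep300 under the control vector. Without Con_F 4 the lowest under the control vector was Nrip1, at -0.16 (SE 0.09), with Med1 at -0.13 (SE 0.09), and Ep300 was at 0.10 (SE 0.09). Med1 averaged 75.6 ± 3.50 CPM in PGR_F, against 83.5 ± 6.39 in PGR_M (SD, n = 3 each), and 78.7 ± 3.11 in Con_F (n = 4), against 85.3 ± 8.66 in Con_M (n = 3). Its adjusted p was 0.820 under the PGR vector and 0.584 under the control vector. Ep300, listed above by library, was higher in all 3 PGR_F libraries than in all 3 PGR_M libraries (log2 fold change 0.15, SE 0.09, adjusted p = 0.820). It was the 1 member of 9 whose groups did not overlap in CPM, while 13.7% of all genes did not overlap in that comparison. Under the control vector 0 of the 9 and 11.3% of all genes did not overlap, and for the vector comparisons the counts were 0 of 9 against 8.24% in females, 15.7% in males and 0.62% over both sexes.

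**Figure D4:**
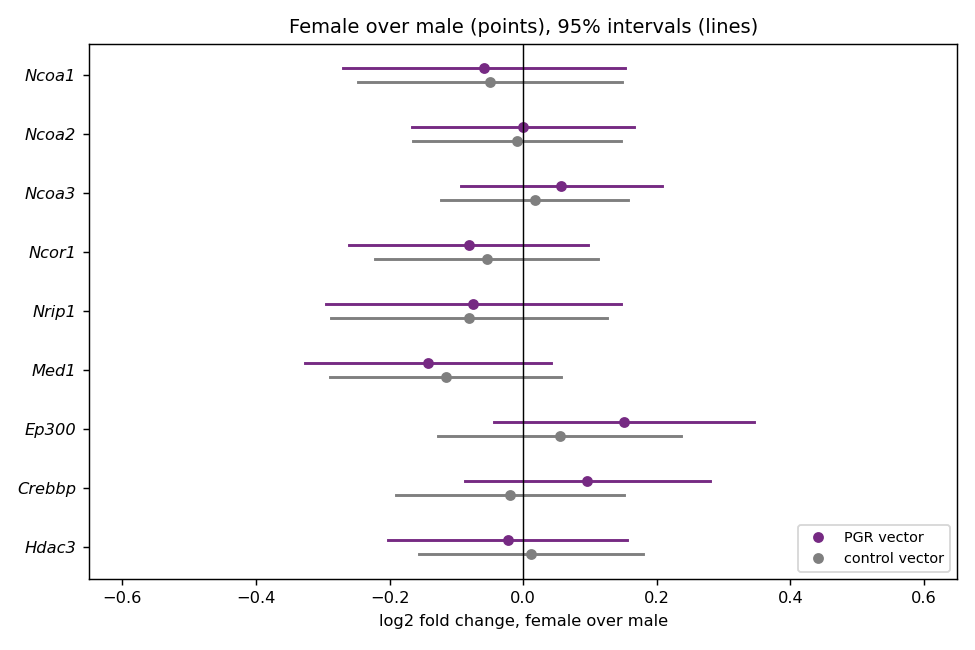
Log2 fold change of females over males for each gene (points) with 95% intervals (lines), under the PGR vector and under the control vector. With all libraries Med1 lies lowest and Ep300 highest under both vectors, while without Con_F 4 Nrip1 lies lowest under the control vector, and all 18 intervals shown span 0.

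Variation between libraries was below the median of the genes compared for all of the 9 but Nrip1. Over the 13 libraries the coefficient of variation was 3.74% for Ncoa3, 4.63% for Ncoa2, 5.62% for Hdac3, 5.76% for Crebbp, 6.19% for Ncor1, 7.37% for Ncoa1, 7.73% for Med1, 7.91% for Ep300 and 9.36% for Nrip1. The median was 9.09% among the 4914 genes with a mean CPM at or above that of Hdac3, of which 0.957% varied less than Ncoa3 and 52.7% less than Nrip1. Those genes were not matched for level: Hdac3 averaged 24.3 CPM, and the other members 77.3 to 331 CPM. Nrip1 was the most variable of the 9, with its highest library 1.38 times its lowest.

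Whether coregulators moved together was asked on deviations of log2 CPM from group means in the 13 libraries, for all 36 pairs, with exact two-sided permutation tests over the 5184 arrangements within groups. No pair passed after adjustment over the 36. The smallest p values were those of Ncoa1 with Med1 (r = 0.65, exact permutation p = 0.0181, Spearman rho 0.69, p = 0.0172), Ncoa1 with Ncor1 (r = 0.74, p = 0.0307, rho 0.70, p = 0.0357) and the paralogues Ep300 with Crebbp (r = 0.65, p = 0.0432, rho 0.59, p = 0.0666). Each had an adjusted permutation p of 0.396 for r. Without the 2 libraries farthest from the median of the first gene, r was 0.66, 0.56 and 0.61. The lowest r was -0.54, for Nrip1 with Ep300 (exact permutation p = 0.121). Ncor1 with its enzyme Hdac3 had r = -0.39 (exact permutation p = 0.341).

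The genes whose log2 CPM ran most like a coregulator's over the 13 libraries, among 7082 to 7084 genes with a mean of at least 10 CPM, are given as a description, since all values share libraries, depth and scaling. The closest match was Tulp4 for Ep300 (r = 0.99, followed by Rfx3 at 0.92). Next came Upf3b and the cohesin subunit gene Stag2 for Crebbp (0.95 and 0.94) and the fatty acid transporter gene Cd36 for Nrip1 (0.94, followed by Mtus1 at 0.91). Ncoa1 was matched best by the G protein gene Gnaq and the exocyst gene Exoc6 (0.93 each), Ncor1 by Cwc27 and the cardiac Z-disc gene Nebl (0.92 and 0.91), and Ncoa3 by S100pbp and Nfxl1 (0.93 and 0.92). The values were 0.92 and 0.90 for Rmnd1 and the mitochondrial GTPase gene Rhot1 with Med1, 0.88 and 0.87 for Kpna6 and Ddx55 with Hdac3, and 0.88 and 0.86 for Bod1l and Acadsb with Ncoa2.

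The wider machinery was read from 5 further lists with 100 genes, of which 97 passed the count filter. Pgr and Esr2 were too low, and Med20 is listed at 0. In the vector comparisons 0 of the 97 passed, with 21 at an unadjusted p under 0.05 averaged over the sexes, 15 in females and 10 in males, beside 14.8%, 10.9% and 7.48% of all genes. All values of these lists are from the main fit with all libraries. They were not read without Con_F 4 or with DESeq2, where the averaged comparison called 338 and 334 genes, so 0 of the 97 may not hold there. Of 6 partners of Ncor1 and Hdac3 in the NCoR complex, 3 were above 0 and 3 below, with a median log2 fold change of -0.04 beside 0.07 for Ncor1 itself. The core subunits Tbl1x, Tbl1xr1 and Gps2 were at 0.03, 0.00061 and -0.09 (SE 0.06, 0.06 and 0.12). Kdm4a, a histone demethylase, was at -0.11 (SE 0.05), Zbtb33, a methyl-CpG binding repressor also called Kaiso, at -0.15 (SE 0.12) and Coro2a, which is scarce at 0.0934 to 0.967 CPM, at 0.73 (SE 0.31).

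Of 31 other Mediator subunits tested, Med26 averaged 83.2 ± 1.48 CPM in PGR_F, against 98.7 ± 11.6 in Con_F (SD, n = 3 and 4), and 78.9 ± 2.81 in PGR_M, against 98.1 ± 7.74 in Con_M (n = 3 each), an averaged log2 fold change of -0.28 (SE 0.07, adjusted p = 0.0965). Med25, a subunit that binds retinoid receptors, was at -0.30 (SE 0.09) and Med30 at 0.25 (SE 0.08). Med1 itself, at -0.04, lay between them, and the list median was -0.0045. Cdk8, the kinase of the Mediator kinase module and the lowest point of its list, was picked out after its values were seen: it had 2315 CPM in Con_M 3 and 183 to 373 CPM in the other 12 libraries, so its averaged value of -1.02 (SE 0.57) rests on 1 control library.

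Among 25 other coactivators and chromatin partners the median was -0.06, with the PGC-1-related coactivator Pprc1 at -0.39 (SE 0.10, adjusted p = 0.117), the SWI/SNF subunit Smarcd3 at -0.24 (SE 0.07) and the arginine methyltransferase Prmt1 at -0.31 (SE 0.09). Among 19 other corepressors and deacetylases the median was -0.02, with Rcor1 at -0.13 (SE 0.05), the orphan receptor Nr0b2 at -0.21 (SE 0.11) and Lcorl at 0.11 (SE 0.07). Of the 16 nuclear receptors tested, 10 were below 0 and the median was -0.08, with Ppard at -0.28 (SE 0.08), the oestrogen-related receptor Esrra at -0.23 (SE 0.07) and the retinoic acid receptor Rara at -0.29 (SE 0.09). Adjusted p values of the genes named in these 3 lists were 0.117 to 0.448.

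In the sex comparisons 1 of the 97 passed under each vector, beside 0.143% of all genes under the PGR vector and 0.229% under the control vector. At an unadjusted p under 0.05 there were 3 of the 97 under the PGR vector, beside 7.25% of all genes, and 9 under the control vector, beside 12.4%. Kdm6a, the X-linked histone demethylase that escapes X inactivation and works with the coactivator-linked methyltransferases Kmt2c and Kmt2d, averaged 187 ± 35.1 CPM in PGR_F, against 99.8 ± 3.61 in PGR_M (SD, n = 3 each), and 177 ± 20.3 in Con_F (n = 4), against 100.2 ± 4.06 in Con_M (n = 3). It was higher in every female library than in every male one, by 0.90 on the log2 scale (SE 0.12, adjusted p = 0.00402 in edgeR) under the PGR vector and by 0.82 (SE 0.11, adjusted p = 0.0061) under the control vector. It was named after its values were seen.

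**Figure D5:**
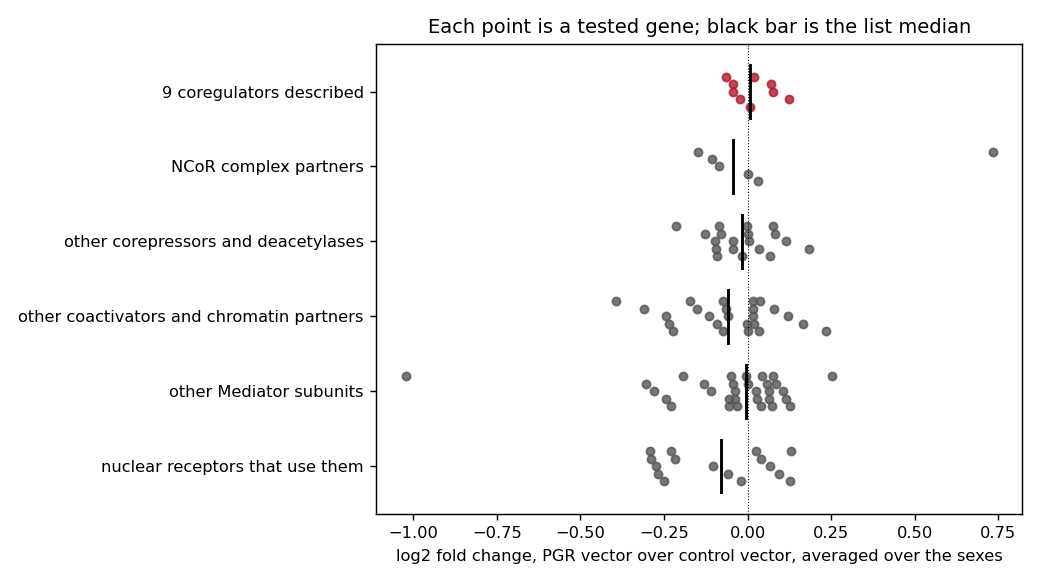
Log2 fold change of the PGR vector over the control vector, averaged over the sexes (horizontal axis), for each tested gene of the 9 coregulators (red) and of the 5 further lists (grey), with list medians as black bars. The 9 coregulators lie between -0.07 and 0.12, and the outlying points are Coro2a at 0.73 and Cdk8 at -1.02.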

How the data were processed

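The values deposited by the authors are raw read counts, with 1 column per library, in a broader table of 55536 genes and in a smaller one, both as whole numbers. Per the submitters' processing notes, STAR 2.5.3a and featureCounts 1.5.0 were used with GRCm38 and mm10, and per the labels' protocols libraries were ribosome-depleted and directional. In all 55536 genes the length equalled end minus start plus 1, so nascent RNA can contribute. The handling of overlapping genes is not recorded in those notes. Sulf2 and Pigl overlap Ncoa3 and Ncor1 on the other strand by 154 and 82 bases and Ttc19 overlaps Ncor1 by 12026. Genes of the same strand inside Ncoa2, Ep300 and Crebbp were all at 0 counts, and those inside Ncoa2 cover 13448 bases. As the handling of overlaps is not recorded, these 0 counts do not show whether reads there were lost from the coregulators' own counts.

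Counts were tested with edgeR 4.0.16 in R 4.3.3: filterByExpr kept 16125 genes, libraries were scaled with TMM, and a robust quasi-likelihood fit of 4 group means to 13 libraries gave 6 contrasts. P-values were adjusted across the 16125 genes by the Benjamini-Hochberg method and called at an adjusted p under 0.05. Intervals are 95% t intervals, and SE is the log2 fold change over the root of F. Log2 CPM used a prior count of 2. Exon lengths came from GENCODE M21 of GRCm38, in which the 9 intervals were identical. Alternatives used DESeq2 1.42.0, limma 3.58.1, other scalings, filters and sample sets. Nothing says that libraries came from separate litters, so p-values measure the spread between pools.

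The 9 members, lists and tests were chosen with earlier results of these data known. Named beside the members were, per further list, the 3 genes with the smallest averaged p, and the subunits Tbl1x, Tbl1xr1 and Gps2. A further list gene is not reported here.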

Additional observations from a re-analysis of the deposited data

How the results depend on the processing

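The count of coregulators passing was 0 in each of the 6 comparisons under every alternative run that covered it, and of 1170 member fold changes recomputed 0 had an adjusted p under 0.05. The count over all genes moved. DESeq2 called 81 genes in females, 29 in males, 334 averaged, 1 in the difference between the sexes, 80 under the PGR vector by sex and 224 under the control vector by sex, and no filter on low counts gave 25, 12, 146, 1, 51 and 131 in the same order. Averaged, limma-voom called 2 and scaling by total count alone 5. Fitting only the compared groups called 1 gene in males, 56 under the PGR vector by sex and 17 under the control vector by sex. With the replicate number as a block, the PGR-vector sex comparison called 35 genes (23 without it) and the control-vector one 25 (37 without it). Leaving out single libraries gave 0 to 20 genes in females, 0 to 3 in males, 1 to 338 averaged, 0 to 0 in the difference between the sexes, 10 to 44 under the PGR vector by sex and 14 to 99 under the control vector by sex. The 20 and the 338 came without Con_F 4. Omitting PGR_F 4 gave 34 averaged, omitting PGR_M 2 gave 4, and omitting Con_M 3 or PGR_M 1 gave 2. In the sex comparisons the 44 came without Con_F 4, the 10 without PGR_F 1, the 99 without Con_M 1 (92 without Con_F 4) and the 14 without Con_F 2 or Con_F 3. Causes were not tested. Same-numbered libraries of the 2 vectors within a sex did not deviate together (6 pairs, r from -0.25 to 0.05). Over all groups, 3 of 16 same-numbered pairs had r over 0.1, the highest 0.247, against 11 of 47 pairs with different numbers, so the numbers were not taken to pair the samples.

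Of the 54 member fold changes, 25 changed sign at least once, in 86 of the 1170 recomputed values, and the largest of these was 0.059 in size, so their sign is not determined. Nor is that of the others, since with all libraries the 95% intervals of all 54 span 0. For those that changed sign when a single library was left out, the ranges over leaving out single libraries follow. For the female vector effect the log2 fold change ran from -0.049 to 0.075 for Ncoa1, from -0.023 to 0.054 for Ncoa3, from -0.051 to 0.059 for Ep300, from -0.033 to 0.083 for Crebbp. For the male vector effect the log2 fold change ran from -0.046 to 0.087 for Ncoa1, from -0.034 to 0.018 for Ncoa3, from -0.11 to 0.023 for Med1. For the averaged vector effect the log2 fold change ran from -0.018 to 0.050 for Ncoa1, from -0.017 to 0.022 for Ncoa3, from -0.056 to 0.0025 for Crebbp. For the difference between the sexes the log2 fold change ran from -0.074 to 0.057 for Ncoa1, from -0.048 to 0.040 for Ncoa2, from -0.012 to 0.064 for Ncoa3, from -0.065 to 0.020 for Ncor1, from -0.070 to 0.083 for Nrip1, from -0.083 to 0.051 for Med1, from -0.083 to 0.014 for Hdac3. For the sex difference under the PGR vector the log2 fold change ran from -0.12 to 0.0026 for Ncoa1, from -0.057 to 0.030 for Ncoa2. For the sex difference under the control vector the log2 fold change ran from -0.038 to 0.021 for Ncoa2, from -0.013 to 0.042 for Ncoa3, from -0.0082 to 0.13 for Ep300, from -0.066 to 0.012 for Crebbp, from -0.037 to 0.060 for Hdac3. With upper-quartile scaling, the sign turned for the male vector effect Ncoa3 at 0.0074, for the difference between the sexes Ncoa2 at -0.013, Nrip1 at -0.012, for the sex difference under the PGR vector Ncoa2 at 0.0033, for the sex difference under the control vector Ncoa2 at 0.016, Crebbp at 0.0056. With scaling by total count alone, the sign turned for the male vector effect Ncoa3 at 0.015, for the averaged vector effect Crebbp at 0.018, for the difference between the sexes Ncoa1 at 0.018, Ncor1 at 0.0015, Med1 at 0.0014, for the sex difference under the PGR vector Ncoa2 at 0.053, Hdac3 at 0.032, for the sex difference under the control vector Ncoa2 at 0.016, Crebbp at 0.0053. With no filter on low counts, the sign turned for the male vector effect Ncoa3 at 0.0077, for the difference between the sexes Ncoa2 at -0.014, Nrip1 at -0.015, for the sex difference under the control vector Ncoa2 at 0.0022. With the replicate number as a block, the sign turned for the female vector effect Ep300 at -0.012, for the difference between the sexes Ncoa1 at 0.015, Hdac3 at 0.0048, for the sex difference under the PGR vector Hdac3 at 0.051, for the sex difference under the control vector Crebbp at 0.0017. Scaling by total count alone kept each level per kb within 1 SD, shifting the median of all genes by at most 0.07 on the log2 scale.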

Other observations

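Counts of Cdk8, a kinase that works beside Med1 in Mediator, were 74392 in Con_M 3 and 6612 to 21936 in the other 12 libraries. The 9 coregulators in that library stayed within their own ranges elsewhere, apart from Ncoa2 (312 CPM) as the lowest and Med1 (90.8 CPM) as the highest of the 13. Ep300 and Tulp4 tracked each other at r = 0.99 over 13 libraries, and at the same value once group means were removed.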
